A study of Mus musculus with 531 samples.

Results

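The genes described are 10 genes known from trophoblast and from the extraembryonic ectoderm, among 22084 genes counted in single cells of mouse embryos. They are Cdx2, Elf5, Gata3, Tfap2c, Ascl2, Wnt7b, Hand1, Krt7, Gjb5 and Prl8a2. They were selected with their levels at each stage known, and with the number of E6.5 cells that carried 4 or more of them, and the Pou5f1 and Cubn levels of those cells, as part of the choice. The levels by stage, the counts of such cells and the levels of Pou5f1 and Cubn are therefore given as descriptions, without a test. All 10 genes had a row in the counts.

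The cells came from C57Bl/6Babr embryos, with no other genotype and no treatment in the labels, and their RNA was sequenced with Smart-seq2 after it had been separated from the DNA of the same cell. The methylation of that DNA is not analysed here. Of 264 cells with RNA, 217 had at least 50000 reads on genes and at least 2000 genes with a read. These were 75 cells of 5 embryos at E4.5 (15, 8, 10, 24 and 18 cells), 59 cells of 1 embryo at E5.5, and 83 cells of 2 embryos at E6.5 (36 and 47 cells). By the study's methods the trophectoderm of E4.5 embryos had been taken off by immunosurgery, the visceral endoderm and the extraembryonic ectoderm had been removed at E5.5, and the extraembryonic tissue had been removed by hand at E6.5, before cells were picked with a pipette. The median depth of an embryo's cells ran from 398206 to 1511811 reads, and no prefix of the cell names was shared between stages, so that a batch following the prefix cannot be told apart from the stage. At E4.5, embryos 1 and 2 had 1 prefix (medians of 398206 and 471571 reads) and embryos 3 to 5 another (787502 to 1352841 reads). The embryo is the replicate in what follows, and the E5.5 stage, with 1 embryo, has none.

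Trophoblast is the lineage that lines the outside of the blastocyst and later forms most of the fetal part of the placenta. In the postimplantation embryo its proximal part, the extraembryonic ectoderm, holds stem cells kept by a circuit of transcription factors that includes CDX2, ELF5, GATA3 and TFAP2C, while the ectoplacental cone and the giant cells beyond it make prolactin-like hormones. The Elf5 promoter is known to be methylated and silent in the embryonic lineage. Several of the genes are not specific to trophoblast: Cdx2 and Hand1 are also switched on in mesoderm and posterior tissues of the gastrula, and Krt7 and Tfap2c in other epithelia and in germ cells.

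By the GENCODE annotation of GRCm38, Cdx2 lies at chr5:147300805-147307270 on the minus strand, Elf5 at chr2:103411688-103450989 on the plus strand, Gata3 at chr2:9857078-9890034 on the minus strand, Tfap2c at chr2:172549593-172558622 on the plus strand and Ascl2 at chr7:142966829-142969264 on the minus strand. Wnt7b lies at chr15:85535437-85582473 on the minus strand, Hand1 at chr11:57828705-57832818 on the minus strand, Krt7 at chr15:101411043-101430313 on the plus strand, Gjb5 at chr4:127354809-127358181 on the minus strand and Prl8a2 at chr13:27345673-27354216 on the plus strand. The exons of Gata3 share 77 bases with 9230102O04Rik on the same strand, so a small part of its reads could belong to either gene. Antisense genes overlap exons of Gata3 (Gm13256), Wnt7b (AU022754) and Krt7 (Gm671), had no row of their own in the counts, and could not be told apart from them without strand.

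The promoter sequences show which DNA lies before the starts of these genes, since the factors among them bind DNA. The table of RefSeq promoters (GRCm38.p6) held 6 of the 10 genes with 7 start sites, and the 250 bases before each start were searched on both strands for GCCNNNGGC (the AP-2 family, to which TFAP2C belongs), GATAA (GATA factors), AGGAAG (an ETS core used by ELF5) and CAATAAA (CDX2). The AP-2 letters were present for 4 of the 6 genes, the ETS letters for 3, the GATA letters for 1 and the CDX2 letters for 0. Among all 32851 promoters of the table, 13.7% held the AP-2 letters, 29.5% the ETS letters, 22.6% the GATA letters and 4.2% the CDX2 letters. A match is a string of letters and was not tested as a site. Capitals mark the matches in the 3 promoters shown, which were taken for the stem-cell factor Cdx2, for the Elf5 start with the GATA letters, and for Gjb5, the gene read in the most cells at E4.5. They lie at chr5:147307250-147307499 on the minus strand, at chr2:103423818-103424067 on the plus strand and at chr4:127358165-127358414 on the minus strand.
Cdx2: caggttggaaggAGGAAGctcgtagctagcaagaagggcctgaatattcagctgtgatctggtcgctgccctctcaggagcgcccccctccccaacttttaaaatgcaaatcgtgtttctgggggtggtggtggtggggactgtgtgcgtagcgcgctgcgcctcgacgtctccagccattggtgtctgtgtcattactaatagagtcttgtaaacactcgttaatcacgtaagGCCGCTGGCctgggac
Elf5: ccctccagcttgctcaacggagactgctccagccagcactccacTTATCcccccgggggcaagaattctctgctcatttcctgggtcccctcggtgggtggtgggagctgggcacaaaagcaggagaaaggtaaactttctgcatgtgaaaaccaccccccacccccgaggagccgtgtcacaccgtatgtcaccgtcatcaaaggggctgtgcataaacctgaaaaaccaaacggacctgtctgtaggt
Gjb5: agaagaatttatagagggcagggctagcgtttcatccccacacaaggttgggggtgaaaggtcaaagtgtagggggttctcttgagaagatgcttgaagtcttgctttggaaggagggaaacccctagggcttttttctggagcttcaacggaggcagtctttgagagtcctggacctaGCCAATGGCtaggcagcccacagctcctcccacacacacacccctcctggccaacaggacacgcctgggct
The Cdx2 promoter held the AP-2 and the ETS letters, and 13 CpG sites. The Elf5 promoter held the GATA letters on the opposite strand and 8 CpG sites. The Gjb5 promoter held the AP-2 letters and 3 CpG sites, where the median over all promoters was 6.

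Across stages, the mean levels of 9 of the 10 genes rank E6.5 above E4.5, and most of them were close to 0 before E6.5. A level here is the mean over an embryo's cells of log2(CPM + 1), with CPM (counts scaled to the same total in every cell) as the unit, and a mean ± SD over the embryos of a stage follows it. The levels per embryo are shown in the plot of the 10 genes.

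**Figure D1:**
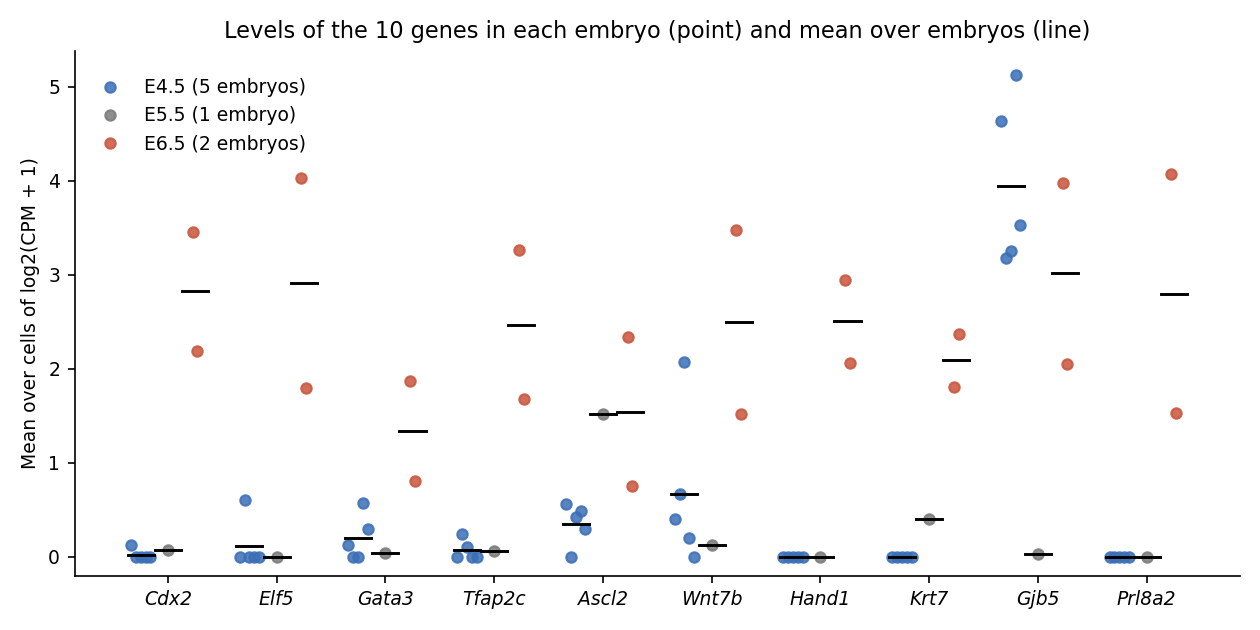
Mean over an embryo's cells of log2(CPM + 1) (y axis) for each of the 10 genes (x axis), with 1 point per embryo at E4.5 (5 embryos), E5.5 (1 embryo) and E6.5 (2 embryos), and a line at the mean over the embryos of a stage. Gjb5 is the gene with levels above 3 in every E4.5 embryo, and the other genes lie below 1 at E4.5, except Wnt7b in embryo 3 (2.07), and between 0.75 and 4.07 at E6.5.

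Among the transcription factors of trophoblast stem cells, Cdx2 had a level of 0.12 in E4.5 embryo 1 and of 0 in the other 4, of 0.068 in the E5.5 embryo, and of 3.46 and 2.19 in E6.5 embryos 1 and 2 (0.025 ± 0.056 at E4.5, SD, n = 5; 2.82 ± 0.90 at E6.5, n = 2). Elf5, an ETS factor, stood at 0.60 in E4.5 embryo 2 and at 0 in the other E4.5 embryos and the E5.5 embryo, and at 4.03 and 1.79 at E6.5. Tfap2c, an AP-2 factor, was at 0, 0.24, 0.11, 0 and 0 at E4.5, at 0.066 at E5.5 and at 3.26 and 1.68 at E6.5. For these 3 factors the E6.5 embryos did not overlap with any earlier embryo, and embryo 1 was above embryo 2. On reads summed per embryo, which weight deeper cells more, Elf5 (27.4 and 49.1 CPM in embryos 1 and 2) and Tfap2c (15.7 and 22.4 CPM) had the other order, and Cdx2 (17.5 and 8.65 CPM) the same. Gata3, a GATA factor of trophectoderm, had lower levels, with 0.12, 0, 0, 0.57 and 0.30 at E4.5, 0.045 at E5.5 and 1.87 and 0.81 at E6.5.

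The bHLH factors differed before E6.5. Ascl2, an imprinted gene needed for the spongiotrophoblast, had levels of 0.56, 0, 0.43, 0.49 and 0.30 at E4.5 and of 2.34 and 0.75 at E6.5, and its level of 1.52 in the E5.5 embryo was between those of the E6.5 embryos. Hand1, which drives giant cell differentiation, had no read in any E4.5 or E5.5 cell, and levels of 2.95 and 2.06 at E6.5. Over summed reads, E6.5 was at least 239-fold higher than E4.5 for Hand1, taking 3 reads over all E4.5 cells as the limit of a count of 0.

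Wnt7b, a Wnt ligand of the chorion, varied between the E4.5 embryos, with levels of 0.40, 0.67, 2.07, 0.20 and 0, then 0.12 at E5.5 and 3.48 and 1.52 at E6.5. Its E4.5 and E6.5 embryos overlapped, since E4.5 embryo 3 lay above E6.5 embryo 2. Krt7, a keratin of simple epithelia, was at 0 in all E4.5 embryos, at 0.40 at E5.5 and at 1.81 and 2.37 at E6.5, and on this scale it was the gene of the 10 with the higher level in E6.5 embryo 2. On summed reads, Elf5, Tfap2c and Wnt7b (20.4 and 24.2 CPM) were also higher in embryo 2. By the same limit, the summed reads of Krt7 at E6.5 were at least 182-fold higher than those at E4.5.

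Gjb5, a connexin of gap junctions, was the exception among the 10, with levels of 4.64, 3.18, 3.26, 5.13 and 3.53 at E4.5, of 0.029 at E5.5 and of 3.98 and 2.05 at E6.5 (3.95 ± 0.88 at E4.5, n = 5; 3.02 ± 1.36 at E6.5, n = 2). The 2 stages overlapped for this gene. Prl8a2, a prolactin-like hormone of the decidua and trophoblast, was at 0 in all E4.5 embryos and at E5.5, and at 4.07 and 1.53 at E6.5, at least 1127-fold higher over summed reads than the limit at E4.5. Per kilobase of exon, Prl8a2 had the highest level of the 10 in both E6.5 embryos, with 53.5 and 34.4 CPM per kilobase, and Gjb5 the next, with 25 and 14 CPM per kilobase. Krt7 (0.625 and 1.36 CPM per kilobase) and Gata3 (1.15 and 0.568) had the lowest levels on that scale.

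The E6.5 embryos both lay above all 5 E4.5 embryos for 8 of the 10 genes, all but Wnt7b and Gjb5, and for 13 of 32 other trophoblast genes listed for comparison (transcription factors, signalling genes, keratins and surface genes, and genes of the ectoplacental cone, giant cells and labyrinth). Over all 17913 genes with a read this held for 26.8%. No gene of the 10 lay below all E4.5 embryos in both E6.5 embryos, against 4 of the 32 other genes and 6.04% of all genes. The median difference in mean level between the stages was 2.25 over the 10 genes, 0.33 over the 32 others and 0.12 over all genes, but the 10 were selected with these levels known. The 32 others were listed with earlier results of these data known.

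The number of cells with a read shows how far the levels come from few cells. At E6.5 a read was found in 60 of 83 cells for Hand1 and in 58 for Cdx2, the most of the 10, and in 36 for Ascl2 and 34 for Gata3, the fewest. At E4.5 the numbers were 49 of 75 for Gjb5, 7 for Ascl2 and Wnt7b, 6 for Gata3, 2 for Tfap2c and 1 for Cdx2 and Elf5, and 0 for Hand1, Krt7 and Prl8a2. By a limit of 3 counts, 0 of 75 cells still allows 4% of cells to hold a read (4.80% by the exact binomial interval), and it sets no limit on cells that express the gene below detection. At E5.5 the number was 17 of 59 for Ascl2, 5 for Krt7, and 3 or fewer for each other gene. In a mean over an embryo's cells, fewer cells with a gene and less RNA per cell cannot be told apart.

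At E6.5 the genes were found together in the same cells. Counting a gene as expressed at 10 CPM or more, 34 of 83 cells (41%, exact binomial 95% interval 30.3 to 52.3%) expressed 4 or more of the 10. These were 23 of 36 cells of embryo 1 (63.9%, 46.2 to 79.2%) and 11 of 47 cells of embryo 2 (23.4%, 12.3 to 38%). No cell did so among the 75 at E4.5, where the highest number was 3, or the 59 at E5.5, where it was 2. Intervals cover counting error only, since reads carried no molecular identifiers and cells of 1 embryo are not independent. After thinning each cell to 50000 reads the number was again 34 of 83, with 22 in embryo 1 and 12 in embryo 2, and none at the earlier stages. Thinning evens out reads alone, and the median number of genes detected per cell was 9304 at E6.5, 6985 at E4.5 and 5242 at E5.5. The part of this difference in the counts was not tested.

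**Figure D2:**
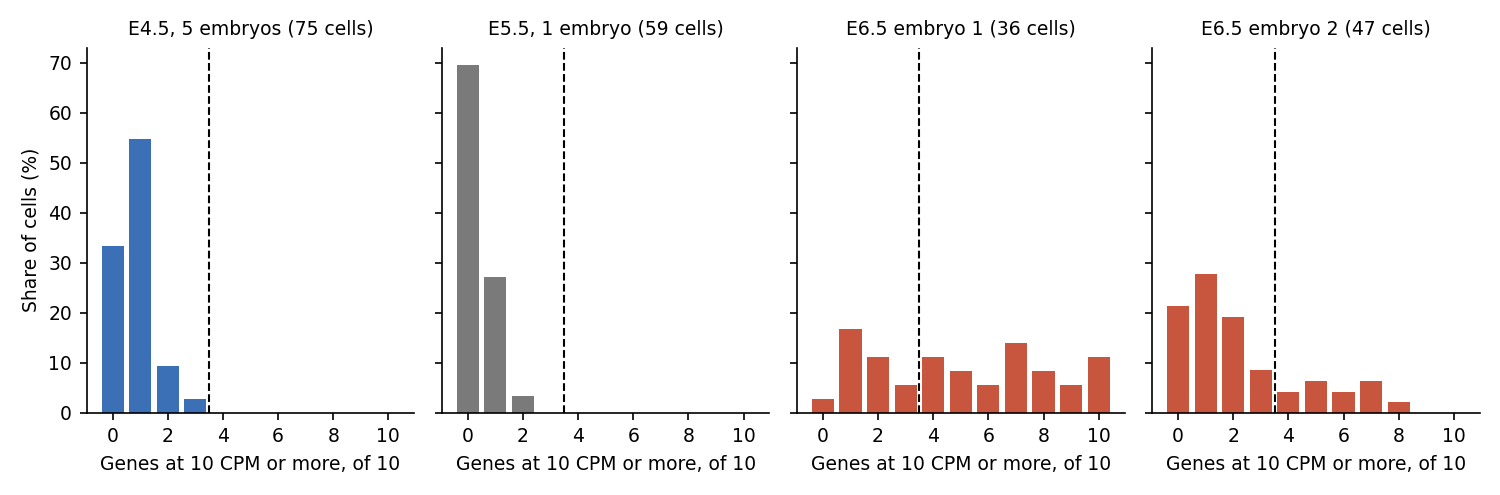
Share of cells in percent (y axis) by the number of the 10 genes at 10 CPM or more in the cell (x axis), in panels for E4.5 (75 cells), E5.5 (59 cells) and E6.5 embryos 1 (36 cells) and 2 (47 cells). The dashed line lies between 3 and 4 genes, and only the E6.5 panels have cells to its right, with all 10 genes in 4 cells of embryo 1.

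The number of genes per cell varied without a gap. Of the 83 cells at E6.5, 11 expressed none of the 10, 19 expressed 1, 13 expressed 2 and 6 expressed 3. Above the threshold, 6 cells expressed 4, 6 expressed 5, 4 expressed 6, 8 expressed 7, 4 expressed 8, 2 expressed 9 and 4 expressed all 10. The 6 cells just inside the threshold had a median of 14.3 CPM for Cdx2, 14.5 for Wnt7b and 19.1 for Gjb5, and the 6 cells just outside it had 3.79, 1.11 and 6.72 CPM. Hand1 and Krt7 had the other order, with medians of 0.68 and 9.90 CPM just inside and of 9.59 and 14.2 CPM just outside. In the 4 cells with all 10, all from embryo 1, Elf5 was at 55.4 to 180 CPM, Gjb5 at 69.8 to 279 CPM and Hand1 at 24.1 to 106 CPM.

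**Figure D3:**
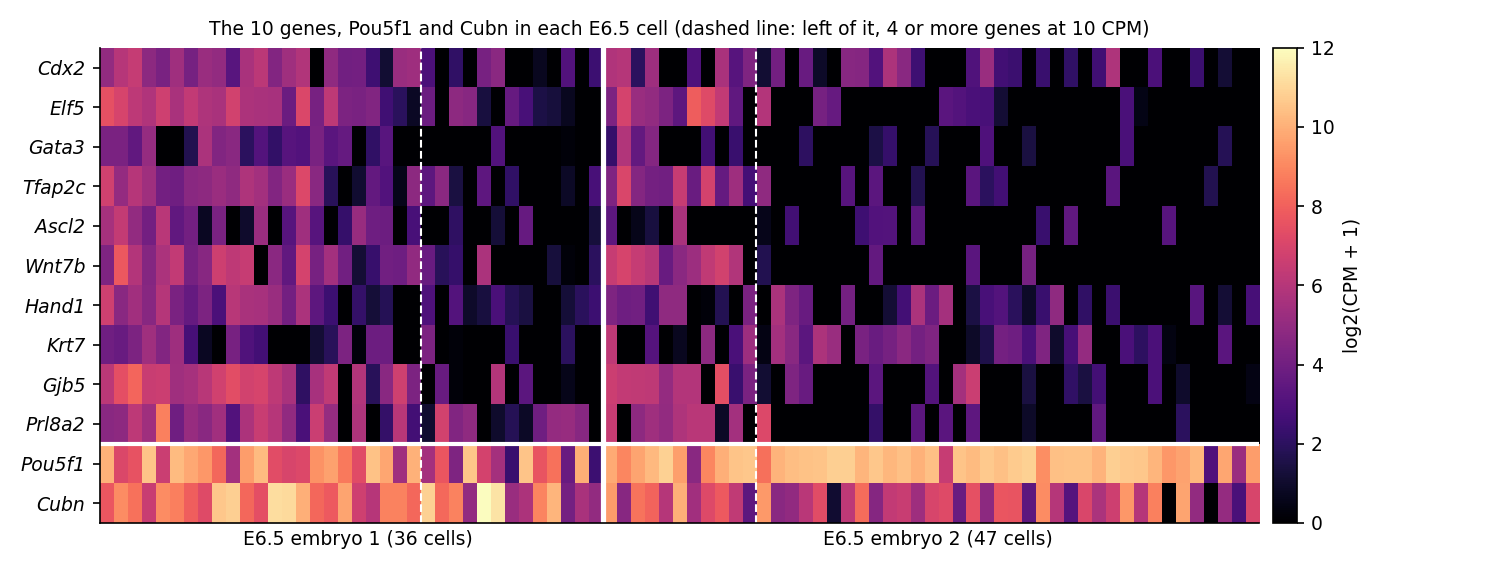
Colour gives log2(CPM + 1) of the 10 genes and of Pou5f1 and Cubn (rows) in each of the 83 E6.5 cells (columns), set apart by embryo and ordered within it by the number of the 10 genes at 10 CPM or more, with cells of 4 or more to the left of the dashed line. Elf5, Tfap2c, Wnt7b and Gjb5 fill most columns to the left of the lines, while Krt7, Hand1 and Cdx2 are also read in many cells of embryo 2 to the right.

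Among the 34 cells, Wnt7b reached 10 CPM in 30, Elf5 and Gjb5 in 29, Tfap2c in 28, Prl8a2 in 25 and Cdx2 in 24. Hand1 did so in 20 cells, Ascl2 in 14, Krt7 in 13 and Gata3 in 12. Elf5 had a median of 49.1 CPM in these cells (range 0 to 237) and of 0 in the other 49, and Gjb5 had medians of 68.1 and 0 CPM. Krt7 differed less, with 13 of the 34 cells (38.2%) and 15 of the other 49 (30.6%) at 10 CPM or more and medians of 5.48 and 1.95 CPM, and within embryo 2 its medians were in the other order, 0.64 against 6.14 CPM. These values follow from how the 34 cells were defined.

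Pou5f1, the pluripotency factor of the epiblast, was read in all 34 cells at 25.4 to 1872 CPM, with a median of 752 CPM. Cubn, an endocytic receptor of the visceral endoderm, was read in all 34 as well, at 9.43 to 2282 CPM with a median of 288 CPM. Both genes were at 10 CPM or more in 33 of the 34 cells, and at 100 CPM or more in 24. In the other 49 cells the medians were 1126 CPM for Pou5f1 and 73.3 CPM for Cubn, and 41 of them had both at 10 CPM or more. Within embryo 1 the median of Pou5f1 was 614 CPM in the cells with 4 or more genes and 117 CPM in the rest, and within embryo 2 it was 919 and 1349 CPM, so the direction differed between the embryos. The median of Cubn was 353 against 303 CPM in embryo 1 and 144 against 70.3 CPM in embryo 2. The mean of Cubn had the other direction in embryo 1, with 638 against 849 CPM, and in embryo 2 it was 269 against 156 CPM.

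**Figure D4:**
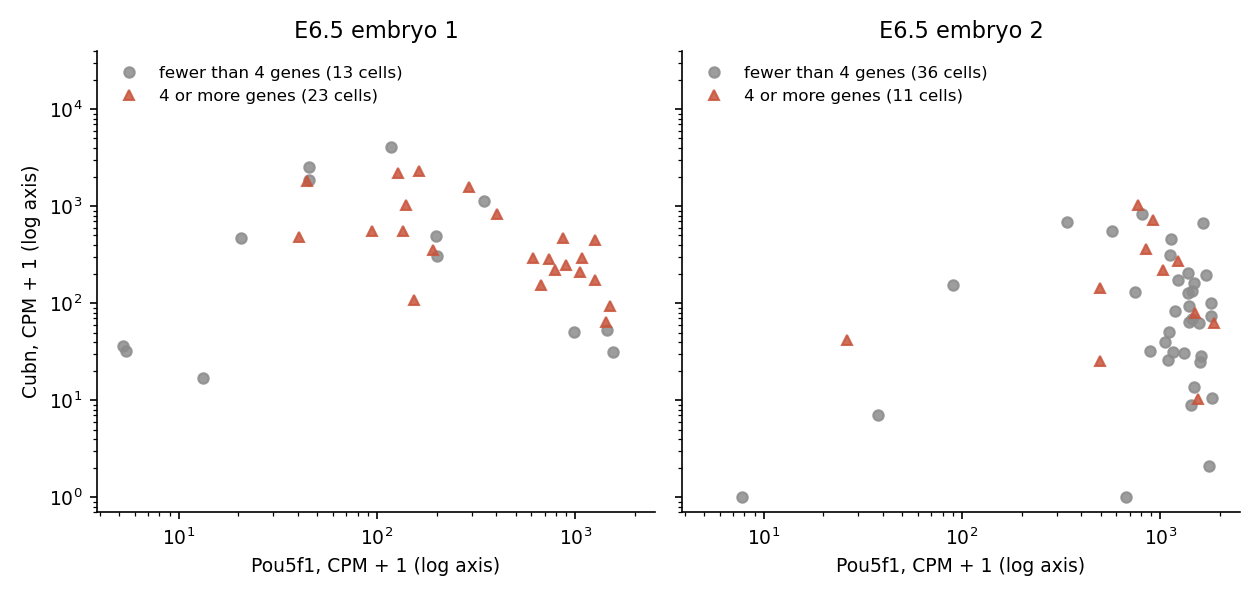
Pou5f1 (x axis) and Cubn (y axis) of each E6.5 cell, as CPM + 1 on log axes, in 1 panel per embryo, with triangles for cells with 4 or more of the 10 genes and circles for cells with fewer. The 23 triangles of embryo 1 and the 11 of embryo 2 have Pou5f1 between 25.4 and 1872 CPM and Cubn between 9.43 and 2282 CPM.

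Cells with both Pou5f1 and Cubn at 10 CPM or more were present at E4.5 as well, 57 of 75, and at E5.5 in 0 of 59. The sum of 13 endoderm markers had a median of 6744 CPM in the 34 cells (1382 to 27433) and of 2587 CPM in the other E6.5 cells (135 to 31237), with all 13 markers read in both sets. The direction differed between the embryos, with medians of 7198 against 12089 CPM in embryo 1 and of 5580 against 2132 CPM in embryo 2. The sum of 9 epiblast markers had medians of 3076 and 3298 CPM, with all 9 read in both, and the medians were 2595 and 791 CPM within embryo 1 and 3538 and 3647 CPM within embryo 2. The sum of 8 mesoderm markers had medians of 125 and 292 CPM, and it was lower in the cells with 4 or more genes in embryo 2 (111 against 799 CPM) and not in embryo 1 (135 against 60.4 CPM). The sum of 8 decidua markers had medians of 17.1 and 5.67 CPM, and that of 4 blood markers had medians of 3.84 and 0 CPM. The sum of 4 extraembryonic mesoderm markers had medians of 9.83 and 0.876 CPM, with 2 of the 4 read in the 34 cells and all 4 in the rest. The medians were 5.56 against 0 CPM within embryo 1 and 11.2 against 2.86 CPM within embryo 2. Of the 4, Ahnak had a higher mean in both embryos (11.4 against 0.378 and 9.32 against 3.48 CPM). In embryo 2 Foxf1 (0 against 3.40 CPM) and Kdr (1.96 against 8.70 CPM) had lower means. Kdr was at 0.312 against 0 CPM in embryo 1. The sum of 4 germ cell markers had medians of 1.54 and 0.851 CPM, and the direction differed between the embryos (3.94 against 0 CPM in embryo 1 and 0 against 2.42 CPM in embryo 2). The part of these cell types in the levels of the 10 genes was not tested, and doublets were not called.

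The position of a cell in the labels' numbering moved with the counts. Dividing cell numbers by 12 (with a remainder of 0 written as 12), the kept cells of embryo 1 had remainders of 1 to 5 and those of embryo 2 of 6 to 8 and 10 to 12. The 8 cells of embryo 2 with a remainder of 9 all failed the filter on reads and genes. This split was looked at after the values were seen, and the labels give the numbers no meaning. In embryo 2, 10 of the 23 cells with remainders 6 to 8 expressed 4 or more genes (43.5%), and 1 of the 24 cells with remainders 10 to 12 did (4.17%). All 24 of the latter held reads of T and Mesp1, both primitive streak and mesoderm genes. What the numbering stands for was not tested.

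The 34 cells were spread over clusters found without the 10 genes and the 32 other trophoblast genes. The largest, an unnamed cluster, held 48 of the 83 E6.5 cells and 27 of the 34. In it no epiblast, endoderm or mesoderm marker and 3 of the 32 other trophoblast genes were raised over the other E6.5 cells. The 27 were 17 of its 26 cells of embryo 1 and 10 of its 22 cells of embryo 2. An endoderm-like cluster of 12 cells, 10 of them from embryo 1, held 6. It had 12 of 13 endoderm markers raised, and also 14 of the 32 other trophoblast genes, which were not used for names. A mesoderm-like cluster of 23 cells, all from embryo 2, held 1. It had all 8 mesoderm markers raised, and also 5 of 9 epiblast markers, 5 of 13 endoderm markers and 3 other trophoblast genes. Within embryo 1, 65.4% of the cells of the unnamed cluster and 60% of those of the endoderm-like cluster expressed 4 or more genes. In the mesoderm-like cells Krt7 was read in 87% of cells and Cdx2 and Hand1 in 73.9% each, with medians of 14.2, 4.6 and 5.2 CPM, while Wnt7b was read in none of the 23 cells and Prl8a2 in 4.35%. This grouping depended on the random seed, with the same clusters from 17 of 20 seeds, and on the resolution. At a resolution of 1.0 the unnamed cluster held 28 cells. A further cluster of 18 cells had 6 of 9 epiblast markers and 10 of the 32 other trophoblast genes raised. The rule for names made this further cluster epiblast-like. That name is not used here, because its 10 leading genes included Wnt7b, Gjb5 and Tfap2c and no epiblast marker. In the unnamed cluster of 48 cells Prl8a2 was read in 39 of 48 cells and Elf5 in 38. The genes therefore did not form 1 pattern over the E6.5 cells, since Cdx2, Hand1 and Krt7 were read in cells where Wnt7b and Prl8a2 were rare.

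Over pairs of the 10 genes, levels in the 83 E6.5 cells correlated with a median Pearson r of 0.397 over 45 pairs, of which 42 were positive. Cells of the same embryo are not independent of each other, and both E6.5 embryos carry the same prefix in the labels. Within embryo 1 the median was 0.501 over 36 cells, and within embryo 2 it was 0.183 over 47 cells. The highest pair was Tfap2c with Wnt7b (r = 0.788 over 83 cells), then Elf5 with Wnt7b (0.741) and Elf5 with Tfap2c (0.704), while Krt7 with Prl8a2 had the lowest value (-0.136). These 3 pairs were also the highest within embryo 2 (0.814, 0.759 and 0.711). Within embryo 1 the highest were Elf5 with Hand1 (0.758, but -0.046 in embryo 2) and Tfap2c with Hand1 (0.720, and 0.164 in embryo 2), and then Tfap2c with Wnt7b (0.684). The number of genes detected in a cell followed the mean level of the 10 genes in embryo 1 (Spearman rho of 0.578 over 36 cells) and not in embryo 2 (-0.0283 over 47 cells), and reads per cell followed it with rho of -0.255 and 0.208.

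The 10 other genes whose levels were most like the mean level of the 10 over the 83 E6.5 cells were Rhox4g (r = 0.777), Itga7 (0.734), Gm9 (0.733), AU018091 (0.731), Ahnak (0.714), Zfp42 (0.699), Nup62cl (0.695), Dppa4 (0.691), Tex19.1 (0.681) and Htra1 (0.675). The search covered 13649 genes with a read in at least 5 of these cells. The giant cell hormone gene Prl3d1 (r = 0.674) ranked 11 and the trophoblast and pluripotency factor Esrrb (0.667) ranked 13. Within embryos these 10 genes had r of 0.507 to 0.754 in embryo 1 and of 0.439 to 0.715 in embryo 2. Pou5f1 had an r of -0.055 over both embryos, but of 0.274 and 0.040 within embryos 1 and 2. Cubn had an r of 0.442 over both, and of 0.265 and 0.345 within them. T, the marker of the streak, had the lowest r of the genes searched over both embryos (-0.443), and -0.145 and -0.368 within them.

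Other trophoblast genes were read in the same cells to different degrees. Of the 30 of the 32 with a read in E6.5 cells, 20 had a higher mean CPM in the cells with 4 or more genes than in the rest in both embryos, and 1 had a lower one in both, against 28.5% higher and 13.7% lower of 16821 genes outside the 10. With the ratio taken on mean CPM + 1, which pulls the ratios of low genes towards 0 on the log2 scale, 3 were higher by at least 2-fold in both embryos and 0 lower, against 1.93% higher and 0.791% lower of the same 16821 genes. The 3 were Esrrb (log2 ratio of mean CPM + 1 of 1.98 and 1.54 in embryos 1 and 2), the factor Sox21 (2.52 and 1.15) and the surface protein gene Plet1 (1.33 and 1.0). Gata2, with mean CPM of 5.03 against 2.24 in embryo 1 and of 4.46 against 1.56 in embryo 2, stayed below that limit in embryo 1 because of the added 1. All 5 signalling genes, among them Bmp4 and Bmp8b, ligands that the extraembryonic ectoderm sends to the epiblast, were higher in both embryos, and none by 2-fold in both on this scale. Tpbpa, the marker of the ectoplacental cone, had a mean of 0 in both sets of both embryos. Among genes outside the 10 with a mean of at least 50 CPM in the cells with 4 or more genes of both embryos, a limit that itself favours genes high in those cells, the first by the smaller of the embryos' log2 ratios of mean CPM + 1 were Sfmbt2 (2.02 and 2.15), an imprinted Polycomb gene needed for trophoblast, Ddah1 (1.98 and 1.99) and Nup62cl (1.63 and 2.01). These ratios have no test, because the cells were defined by the 10 genes.

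At E4.5, after immunosurgery, Gjb5 was the gene of the 10 that was read in most cells, and it lay in the cells with endoderm genes. The E4.5 cells formed an epiblast-like group of 24 cells and an endoderm-like group of 51 cells in clusters made without the 10 genes, with both groups present in all 5 embryos. Of 20 random seeds, 14 gave the same clusters, with a lowest adjusted Rand index of 0.654 (1 for the same clusters). The seeds were compared before the endoderm-like clusters were joined, and the tests below used a single seed. The mean level of Gjb5 in the endoderm-like cells was 6.23, 6.36, 5.60, 6.07 and 4.49 in embryos 1 to 5 (5.75 ± 0.76, SD, n = 5). In the epiblast-like cells it was 1.46, 0, 0.92, 2.29 and 0.15 (0.96 ± 0.95). The name of this group does not hold alike for all of its cells, since 8 of the 24 had Cubn at 10 CPM or more, at up to 1907 CPM. The embryo means of the groups did not overlap, and 43 of 51 endoderm-like cells had a read, against 6 of 24 epiblast-like cells. The 2 endoderm-like clusters, of 38 and 13 cells, each held Gjb5 reads, in 33 and 10 cells.

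**Figure D5:**
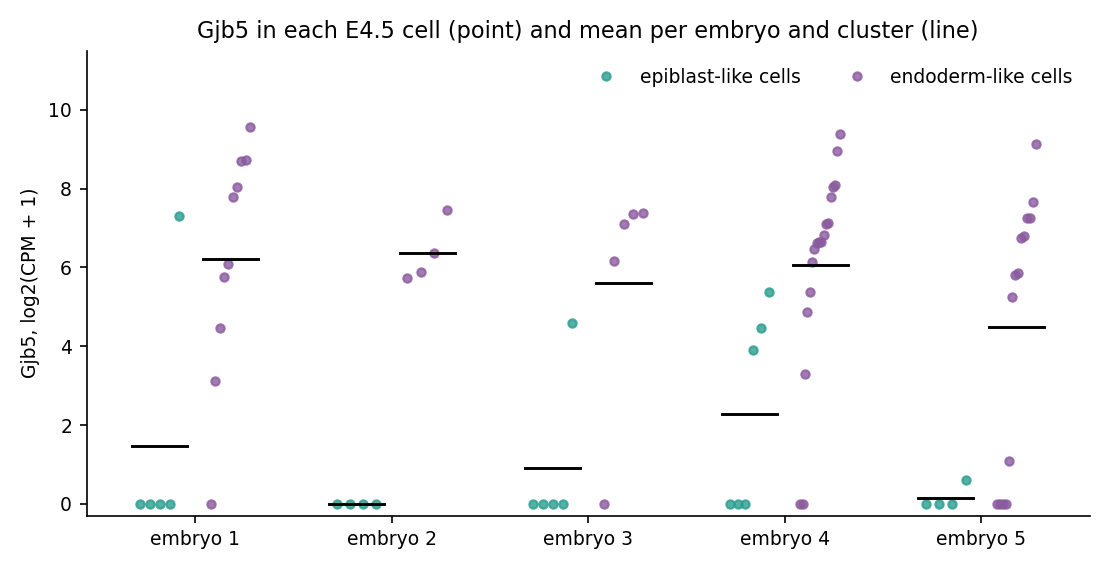
Gjb5 as log2(CPM + 1) (y axis) in each E4.5 cell, with a point per cell and a line at the mean of the epiblast-like or the endoderm-like cells of each embryo (x axis). The lines of the epiblast-like cells lie between 0 and 2.29 and those of the endoderm-like cells between 4.49 and 6.36.

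Gjb5 was lower in the epiblast-like than in the endoderm-like sums by 5.04 on the log2 scale (SE 0.82, adjusted p = 0.00173, edgeR quasi-likelihood test on reads summed per embryo and group, with the embryo as a block), and lower in 5 of 5 embryos. Over 9437 genes tested, 6.05% were called higher and 6.63% lower in the epiblast-like sums, in groups that were themselves made from the expression of these cells. The other 9 of the 10 genes had too few reads to pass the filter on low counts in this comparison. Over the alternatives tried, the adjusted p of Gjb5 ranged from 2.77e-14 to 0.0136 and its difference stayed negative.

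Of the 32 other trophoblast genes, 19 passed the filter in the same comparison, of which 3 were called higher and 4 lower in the epiblast-like sums. Esrrb was higher by 5.71 on the log2 scale (adjusted p = 0.00674, edgeR), as were Cdh3 (5.36, adjusted p = 0.0237, edgeR) and Phlda2 (7.63, adjusted p = 0.0111, edgeR). Phlda2, an imprinted growth regulator of the placenta, was higher in the sums of 4 of 5 embryos. In embryo 1 it was at 48.8 CPM in the epiblast-like and 61.5 CPM in the endoderm-like sum, which holds 1 cell at 444 CPM, while its mean log2(CPM + 1) was 5.5 and 2.29 there and was higher in the epiblast-like cells of all 5 embryos. Without the embryo as a block its adjusted p was 0.274 (edgeR). The receptor Fgfr2 (-3.72, adjusted p = 0.0117, edgeR), the ETS factor Elf3 (-2.62, 0.0126), Krt8 (-4.84, 0.0387) and Furin (-3.63, 0.0459), a protease that processes signalling proteins, were lower. Without the block Krt8 and Furin had adjusted p of 0.0575 and 0.0557 (edgeR), and the call of Furin was lost without any 1 embryo (0.0590 to 0.151, edgeR). The adjusted p (edgeR) passed 0.05 for Krt8 without embryo 2, 4 or 5 (0.0580 to 0.102), for Elf3 without embryo 1, 3 or 4 (0.0511 to 0.0557), for Cdh3 without embryo 1, 3 or 5 (0.0521 to 0.0758), for Fgfr2 without embryo 3 (0.0541) and for Phlda2 without embryo 4 (0.0554). Without embryo 3 the call of Krt8 was lost too, since it did not pass the filter on low counts there. Esrrb stayed called without each embryo in turn.

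Between stages, the other trophoblast genes that were called included a pair of keratins of simple epithelia. In edgeR's quasi-likelihood test of the embryo sums at E6.5 against E4.5, 28 of the 32 were tested and 5 were called higher and 0 lower, against 3.95% higher and 2.61% lower of 15358 genes. Because the 32 were listed with earlier results of these data known, the shares are no independent comparison. At an unadjusted p under 0.05, 10 were higher and 5 lower (edgeR), where 3475 of the 15358 genes were under it in either direction. DESeq2 called 4 higher and 3 lower, against 840 higher and 1027 lower of the 15358 genes, of which 2056 had no adjusted p. Krt18 had 10.4, 0.789, 13.4, 0.509 and 17.3 CPM in the E4.5 embryos and 345 and 225 CPM in the E6.5 embryos, higher by 5.24 on the log2 scale (adjusted p = 0.00177, edgeR). Its partner Krt8 was higher by 4.68 (adjusted p = 0.00502, edgeR), Peg10, an imprinted gene needed for the placenta, by 5.21 (0.0137) and Bmp8b by 5.57 (0.0343). Prl3d1 had no read at E4.5 and was at 23 and 3.22 CPM in the E6.5 embryos, at least 375-fold higher over summed reads than the limit at E4.5 (adjusted p = 0.00679, edgeR). Its family holds near-identical copies, so its reads are uncertain.

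The 5 calls did not hold alike. Without E6.5 embryo 1, the adjusted p was 0.505 for Bmp8b, 0.221 for Peg10 and 0.197 for Prl3d1 (edgeR, with the remaining E6.5 embryo assumed to vary like the E4.5 embryos), while Krt18 and Krt8 stayed called. Bmp8b was also lost without E6.5 embryo 2 (adjusted p = 0.0882, edgeR) and without E4.5 embryo 1 or 3 (0.0630 and 0.0530), and Prl3d1 in DESeq2 (adjusted p = 0.0723). Krt8 and Krt18 also mark endoderm, and they were read in 82 of 83 E6.5 cells, more than any of the 10 genes.

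Ascl2 was the gene of the 10 that was read in more than a few cells at E5.5, in 17 of 59 cells at up to 169 CPM. Of these, 16 lay in the epiblast-like cluster of 45 cells and 1 in the unnamed cluster of 14, and none of the 17 had a read of Cubn. The name of the larger cluster does not hold for all of its cells, since 7 of the 45 had Cubn at 150 to 1627 CPM and Pou5f1 at 0 to 1.74 CPM, and at a resolution of 1.0 an endoderm-like cluster of 3 cells appeared at this stage. Wnt7b, Cdx2, Tfap2c and Gata3 were each read in 2 or 3 cells at that stage, and Hand1, Elf5 and Prl8a2 in none of the 59 cells, which by the limit of 3 counts still allows 5.08% of cells to hold a read (6.06% by the exact interval). With 1 embryo, the spread between embryos at E5.5 is not known.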

How the data were processed

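Cells of mouse embryos were sequenced for RNA by Smart-seq2, without molecular identifiers, next to bisulfite sequencing of their DNA, which is not analysed here. The authors deposited raw counts of reads per gene, without normalization; the submitters' notes name Trim Galore, HISAT2 2.1.0, featureCounts and the GRCm38 build, and the annotation is not given in the sources used here. Stage and embryo came from the labels, which name 5 embryos at E4.5 where the study's methods give a smaller number. The 10 genes, the other trophoblast genes and the marker lists were chosen with earlier results of these data known.

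From the deposited counts, cells with at least 50000 reads and 2000 genes were kept and CPM and log2(CPM + 1) computed. Symbols were found for 21907 of 22084 identifiers. The genes named are the 10, Pou5f1 and Cubn, the listed genes, the 10 most alike across E6.5 cells (Pearson r with the mean level) and the largest ratios between cells with 4 or more of the 10 genes and other cells of the same embryo. A gene counted as expressed at 10 CPM. Clusters came from Leiden clustering within each stage (scanpy 1.11.5, resolution 0.5, 2000 variable genes, 20 components, 15 neighbours), without the 10 genes and the 32 others, and were named from the epiblast, endoderm or mesoderm list with the most raised markers, at least 3; the trophoblast genes named no cluster. Counts summed per embryo, and per embryo and cluster at E4.5, were tested with edgeR 4.0.16 (quasi-likelihood, TMM, its default filter, Benjamini-Hochberg, threshold 0.05), and a standard error was taken from the F statistic. The E4.5 comparison had the embryo as a block, because both sums came from the same animal; the correlations of their deviations ran from 0.0262 to 0.177. Embryo numbers at different stages name different animals (correlations of -0.0745 and 0.076). Reads per cell limit the precision, and the 95% Clopper-Pearson intervals, like the limit of 3 counts for a 0, hold counting error alone. The scripts were tested on simulated data. Alternatives were DESeq2 1.42.0, limma 3.58.1, RLE size factors, no filter, other cell filters, thresholds and pseudocounts, other resolutions, the block, fits on subsets of cells or stages, and each embryo left out. The E4.5 comparison without 1 cluster and the count without Prl8a2 were chosen after seeing the data.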

Additional observations from a re-analysis of the deposited data

Results flagged for a closer look

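For 11 groups of embryos, the highest and lowest embryo was set against the rest of its group, and 2 stood apart. In both, the other 4 embryos were at exactly 0, so that any read sets an embryo apart and the usual rate of about 1 in 20 by chance does not apply. The mean level of Cdx2 in E4.5 embryo 1 was 0.12 on the log2(CPM + 1) scale, with 0 in the other 4 embryos, and rested on 1 cell with 1 read (2.66 CPM). The mean level of Elf5 in E4.5 embryo 2 was 0.60, with 0 in the other 4, and rested on 1 cell with 13 reads (27.2 CPM).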

How the results depend on the processing

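The share of E6.5 cells with 4 or more genes (41%) was 68.7% when 1 read or 1 CPM counted as expressed and 12% at 50 CPM, and it ran from 23.4 to 63.9% when 1 E6.5 embryo was left out. It moved less with other cell filters, with reads thinned, without Tfap2c and Krt7 and without Prl8a2. The median stage difference over the 10 genes, 2.25, was 4.09 with a pseudocount of 0.1, 0.81 with 10 and 3.05 on summed reads, and 1.57 to 2.88 with 1 embryo left out. The difference was above 0 for 9 genes in 12 of 12 alternatives, and for Gjb5 in 1 of 12 (0.032, without E6.5 embryo 2).

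In the E4.5 comparison (571 genes higher and 626 lower), DESeq2 called 1001 and 1454, with 7 of the other trophoblast genes lower, and leaving 1 embryo out gave 354 to 494 and 366 to 513, with 0 to 2 of them lower. Without the replicate block the numbers were 473 and 507, with 2 of the other trophoblast genes lower. Gjb5 stayed called throughout, also without the endoderm-like cluster of 13 cells (-4.90, adjusted p = 0.00206, edgeR).

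Between E6.5 and E4.5 (607 higher and 401 lower; 5 and 0 of the other trophoblast genes), no filter gave 1043 and 649, with 9 higher and 1 lower of the other trophoblast genes. DESeq2 called 1027 lower and 3 of those genes lower, and limma also 3. A replicate block by embryo number left 377 genes and 3 of the other trophoblast genes higher and 1 lower; the numbers pair no samples. Without the cells with 4 or more genes 1 was lower. With 1 embryo left out, 213 to 582 genes were higher, 150 to 401 lower, and 2 to 9 of the other trophoblast genes higher. In each of these cases the cause was not tested. A planned run on epiblast-like cells alone was not made, because at the chosen resolution no E6.5 cluster had that name. Depth limits the rarest genes, since kept cells held 112008 to 8904445 reads and 1 read is worth more CPM in a shallow cell.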

Other observations

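Other genes of the prolactin family, looked up after the values of Prl8a2 had been seen, were in part read at E6.5 as well. Of 25 genes of the family in the counts, 16 had a read in E6.5 cells, 4 of them 3 reads or fewer, and 9 had none. Prl8a2 had 5834 reads in 49 cells, Prl3d1 1942 reads in 35 cells, Prl3d2 931 reads in 20, Prl4a1 583 reads in 14, Prl8a9 555 reads in 14, Prl3c1 373 reads in 16, Prl3d3 208 reads in 27 and Prl7a1 148 reads in 19. At E4.5 and E5.5 the family had 0 reads apart from 1 read of Prl2c3. Members of this family have near-identical copies, so the split of reads between them is uncertain.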
